A study of Gallus gallus with 12 samples.

Results

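Transient receptor potential (TRP) channels sense temperature, stretch and chemical ligands in nerve endings and in the brain, and 4 of their genes, TRPV1, TRPV4, TRPM8 and TRPC1, were followed in the hypothalamus of heat-stressed broilers. The genes were chosen by name, and every array probe whose accession maps to one of them was taken whatever its values. This gave 6 probes for 4 genes, of 43603 probes and 4814 named genes on the array. TRPV1, TRPV4 and TRPM8 had 1 named probe each and TRPC1 had 3. Probes that carry Ensembl transcript accessions have no name here, so that any such probe of these genes is not included. All 12 birds were female Anak_40 broilers that shared 1 or both parents and were 56 d of age at the start of the experiment. The heat stress group (HS, 4 birds) spent 24 h at 34°C. The temperature recovery group (TR, 4 birds) spent 24 h at 34°C followed by 24 h at 25°C, and the control group (CL, 4 birds) stayed at 25°C. As the methods read, HS birds were dissected after the heat, and CL birds were kept a further 24 h and collected with TR. HS would then differ from CL and TR also in the time of collection, which cannot be told apart from the treatment. Each bird's hypothalamus gave 1 array of cyanine 3-labelled RNA, and arrays carry the group and the bird number, as HS1 or CL4. The treatment description names no agent other than heat, and the group labels come from the sample titles. Other characteristics given with the same samples name spleen, male birds, infection with Marek's disease virus and ages between 40 and 56 d after infection, against the titles and the description of the treatment.

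TRP channels are cation channels of the cell membrane that are built from 4 subunits, and their opening depolarizes the cell and lets calcium in. TRPV1 opens on noxious heat and acid, TRPV4 on moderate warmth and cell swelling, and TRPM8 on cooling and menthol. TRPC1 is known less as a thermosensor than as a subunit of channels that open after receptors activate phospholipase C or after calcium stores are emptied. The preoptic and anterior hypothalamus holds neurons that respond to local temperature, and TRPV4 has been studied there in mammals. The channels act as proteins, and the arrays measured only their mRNA.

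Each value below is a log2 signal, the base-2 logarithm of the spot intensity after quantile normalization between arrays, so that a difference of 1 is a doubling. To be tested, a probe had to be marked as well above background in 1 group or more, on every array of that group. Tested probes were fitted together in limma, and a probe was called differentially expressed (DE) when its p was under 0.05, its FDR under 0.15 and its change over 1.5-fold in either direction. Levels are compared between groups for each probe and not between probes, which differ in their binding strength.

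The array set as a whole bears on every value below. Each array had 33505 to 36852 spots above background. The median spot was 15.6 to 17.3 times its local background on HS arrays, 13.6 to 16.1 times on TR arrays and 11.8 to 13.7 times on CL arrays. Each group had a slide of its own, and the HS and TR arrays were scanned on the same day and the CL arrays on another, so that the slide and the treatment cannot be told apart. Of 7 neuron marker genes with a named probe, 6 were above background on all 12 arrays, as were 5 of 10 hypothalamic neuropeptide genes, AVP among them, while CRH was not above background on any array. Of 7 microglial and lymphoid markers, 5 were above background on all 12 arrays. Over all probes of the array this held for 73.9%, so that these counts do not identify the tissue. The tested neuron markers stood high on HS4, HS3 and, less so, on CL1 and HS2, and striated muscle markers stood high on CL2 and HS2. The 4 birds of a group are separate animals. Each limma p-value weighs a difference between groups against the spread between birds within groups. That spread was pooled over the 3 groups and moderated across all tested probes. In bulk RNA, fewer cells of a type and less RNA per cell cannot be told apart.

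Of the 4 genes, 3 gave a signal above background. The probes of TRPV1 and TRPV4 and all 3 probes of TRPC1 were marked as well above background on 12 of 12 arrays, and the probe of TRPM8 on 0 of 12. For comparison, 73.9% of the 43603 probes were marked on each of the 12 arrays and 10.5% on 0 of them. No spot of the 6 probes was saturated. None of the 5 tested probes was DE. The shares of all tested probes that were DE were 3.58% (HS vs. CL), 1.84% (HS vs. TR) and 0.0945% (TR vs. CL). At p under 0.05 without adjustment, TRPV4 passed against CL in both HS and TR and the other 4 probes passed nowhere, where the shares over all tested probes were 20.7% (HS vs. CL), 16.4% (HS vs. TR) and 7.79% (TR vs. CL).

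**Figure D1:**
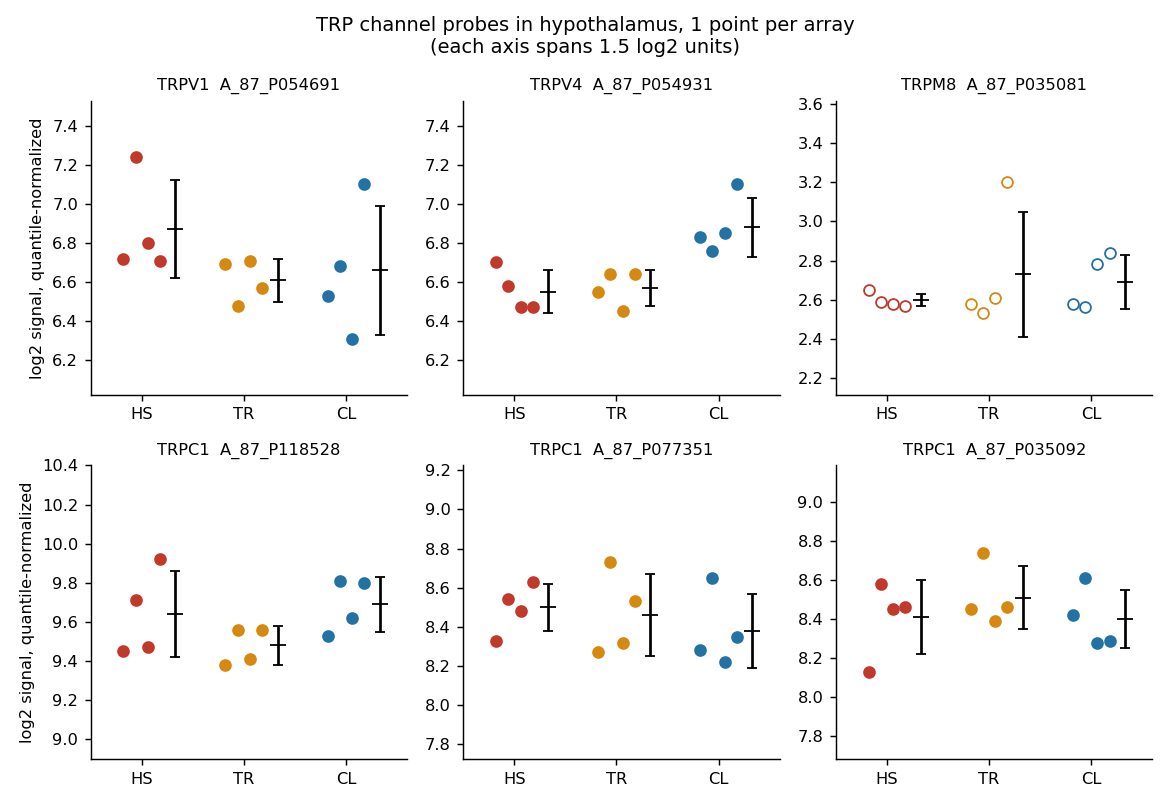
Quantile-normalized log2 signal of the 6 TRP probes, with 1 point per array and 4 arrays in each of HS, TR and CL; the black bar beside each group is the mean with 1 SD, open points were not well above background, and every axis spans the same range. TRPV4 lay at 6.47 to 6.70 in HS and 6.45 to 6.64 in TR, below the 6.76 to 7.10 of CL, and the groups overlapped for every other probe.

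TRPV4, the channel opened by warmth and swelling, was the member whose groups came apart. Its log2 signals were 6.70, 6.58, 6.47 and 6.47 in HS1 to HS4. They were 6.55, 6.64, 6.45 and 6.64 in TR1 to TR4, and 6.83, 6.76, 6.85 and 7.10 in CL1 to CL4. All 4 HS arrays and all 4 TR arrays lay below the lowest CL array, HS and TR overlapped, and CL4 was the highest of the 12. The means were 6.55 ± 0.11 in HS, 6.57 ± 0.09 in TR and 6.88 ± 0.15 in CL (SD, n = 4 each).

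In HS vs. CL, TRPV4 had a log2 change of -0.33 with a standard error of 0.09 and a 95% interval of -0.54 to -0.12, a 1.26-fold lower signal in HS. Its limma p was 0.00465 and its FDR 0.0893, which passed both of those limits, but the change was under the fold limit and the probe was not called. Among all probes tested in HS vs. CL, 5.2% had a p below that of TRPV4, 23.7% had a change of larger size and 7.38% had 4 HS arrays below all 4 CL arrays. In TR vs. CL, the change was -0.32 with an interval of -0.52 to -0.11, a 1.24-fold lower signal in TR. Its limma p was 0.0061 and its FDR 0.459, which missed the limit, and 1.33% of all probes had a smaller p. In this comparison, 2.92% of all probes had 4 TR arrays below all 4 CL arrays. Both comparisons use the same 4 CL arrays, so that their changes are not independent of each other. In HS vs. TR, the change was -0.01, with an interval of -0.22 to 0.19 and an FDR of 0.957. The order of the group means was CL, TR and HS, and TR and HS differed by less than the spread between birds. The lower TRPV4 signal in HS and TR arrays went with the slide and, against CL, with the scan day, and the part of either in the change cannot be told apart from the group.

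TRPV1, the heat- and acid-gated channel of pain-sensing neurons, had groups that overlapped. Its log2 signals were 6.72, 7.24, 6.80 and 6.71 in HS1 to HS4. They were 6.69, 6.48, 6.71 and 6.57 in TR1 to TR4, and 6.53, 6.68, 6.31 and 7.10 in CL1 to CL4. HS2 and CL4 were the highest arrays of their groups, and each was above most arrays of the other groups. The means were 6.87 ± 0.25 in HS, 6.61 ± 0.11 in TR and 6.66 ± 0.33 in CL (SD, n = 4 each).

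The changes of TRPV1 were 0.21 in HS vs. CL, with a 95% interval of -0.16 to 0.58 and an FDR of 0.505, and 0.25 in HS vs. TR, with an interval of -0.12 to 0.62 and an FDR of 0.482. In TR vs. CL the change was -0.04, with an interval of -0.41 to 0.33 and an FDR of 0.965. All 4 HS arrays lay above the CL mean and above the TR mean, but all 3 intervals included 0. The overlap of HS and TR was narrow, with HS4 and TR3 both at 6.71. Under other processing settings, the HS vs. TR change ran from 0.20 to 0.40 (FDR 0.315 to 0.531). The highest, scaled to the 75th percentile, had a limma p of 0.0495. With an array left out, the HS vs. CL change ran from 0.09 to 0.36 (FDR 0.217 to 0.792), with a lowest limma p of 0.0321. The order of the means was HS, CL and TR, and no neighbours in it differed. The intervals leave room for a signal up to 1.5-fold higher in HS than in CL and up to 1.54-fold higher than in TR. On the chicken assembly GRCg7b, the span of TRPV1 overlaps that of both its neighbours, SHPK and TRPV3, and whether their transcripts reach the probe was not tested.

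TRPC1 was read by 3 probes that carry the same accession. Probe A_87_P118528 gave log2 signals of 9.45, 9.71, 9.47 and 9.92 in HS1 to HS4, 9.38, 9.56, 9.41 and 9.56 in TR1 to TR4, and 9.53, 9.81, 9.62 and 9.80 in CL1 to CL4. All TR arrays lay below the CL mean, but the highest TR arrays were above the lowest CL array, and the groups overlapped. Its changes were -0.05 for HS vs. CL (FDR 0.834), 0.16 for HS vs. TR (FDR 0.536) and -0.21 for TR vs. CL (FDR 0.693). The last had a 95% interval of -0.47 to 0.05.

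Probe A_87_P077351 of TRPC1 gave 8.33, 8.54, 8.48 and 8.63 in HS1 to HS4, 8.27, 8.73, 8.32 and 8.53 in TR1 to TR4, and 8.28, 8.65, 8.22 and 8.35 in CL1 to CL4. Probe A_87_P035092 gave 8.13, 8.58, 8.45 and 8.46 in HS1 to HS4, 8.45, 8.74, 8.39 and 8.46 in TR1 to TR4, and 8.42, 8.61, 8.28 and 8.29 in CL1 to CL4. In both, bird 2 was the highest or second highest of its group, and all groups overlapped. The changes of A_87_P077351 were 0.12 (HS vs. CL), 0.03 (HS vs. TR) and 0.09 (TR vs. CL), and in the same order those of A_87_P035092 were 0.01, -0.10 and 0.11, with FDR values between 0.628 and 0.984.

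The 3 TRPC1 probes did not order the groups alike. The means of A_87_P118528 were 9.64 in HS, 9.48 in TR and 9.69 in CL, those of A_87_P077351 were 8.50 in HS, 8.46 in TR and 8.38 in CL, and those of A_87_P035092 were 8.41 in HS, 8.51 in TR and 8.40 in CL. No neighbours in any of these orders differed beyond the spread between birds. Across the 12 arrays, the signals of A_87_P077351 and A_87_P035092 had a Pearson r of 0.77, those of A_87_P118528 and A_87_P077351 an r of 0.50, and those of A_87_P118528 and A_87_P035092 an r of 0.22. Taken as deviations from the group means, the same values were 0.83, 0.72 and 0.50. Between probes of different genes, r lay between -0.32 and 0.32. These points share arrays and slides, and the values are a description.

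**Figure D2:**
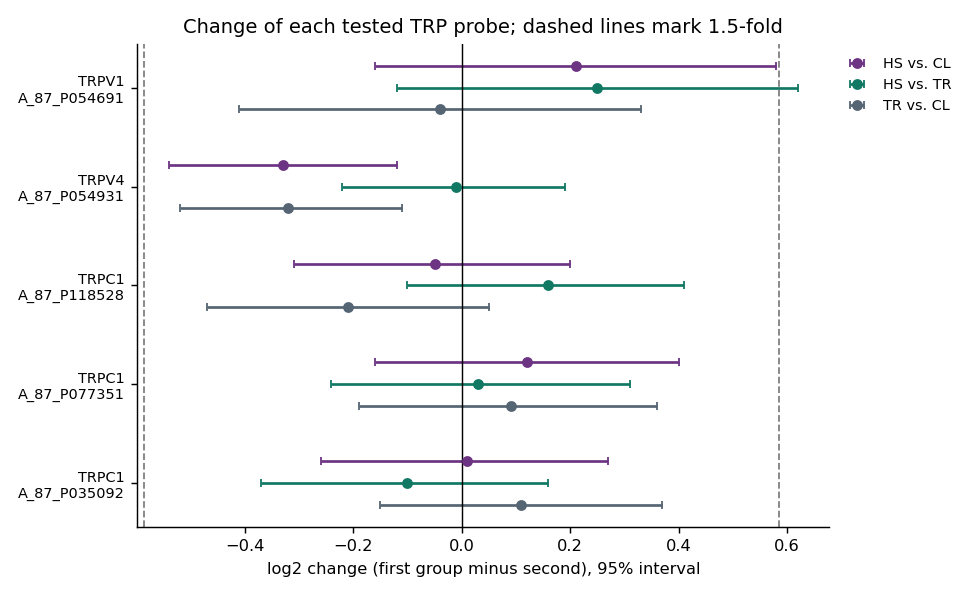
Log2 change of the 5 tested probes in each of the 3 comparisons, first group minus second, with 95% intervals from the limma fit of 12 arrays; dashed lines mark a 1.5-fold change. The intervals of TRPV4 against CL (-0.54 to -0.12 for HS, -0.52 to -0.11 for TR) lay below 0, and all others included 0.

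TRPM8, the cold and menthol receptor of sensory neurons, was not well above background on any array, and no fold change is given for it. Its log2 signals were 2.65, 2.59, 2.58 and 2.57 in HS1 to HS4. They were 2.58, 2.53, 2.61 and 3.20 in TR1 to TR4, and 2.58, 2.56, 2.78 and 2.84 in CL1 to CL4. TR4 was the highest, and the groups overlapped. Each value lay between 1.43 and 2.99 log2 units under the lowest signal marked as above background on its array, which was 4.12 to 5.56. A weaker mark, for a spot that is positive and significant against its local background, was set on TR4, CL3 and CL4.

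The TRPM8 spot was 1.16 to 1.78 times its local background. Negative control spots, 153 on each array, had medians of 1.03 to 1.24 and 95th percentiles of 1.42 to 2.43. By the same measure, TRPV4 spots were 4.05 to 4.61 times background in HS, 3.29 to 4.12 times in TR and 3.81 to 4.89 times in CL, above the 95th percentile of the negative controls on every array. TRPV1 spots were 5.67 to 7.80 times background in HS, 4.16 to 4.74 times in TR and 3.53 to 5.75 times in CL. These ratios were not scaled between arrays, and they rank spots against the background of their own array only. A level of TRPM8 mRNA under these limits was not detectable with the probe, which does not show that the mRNA is absent.

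**Figure D3:**
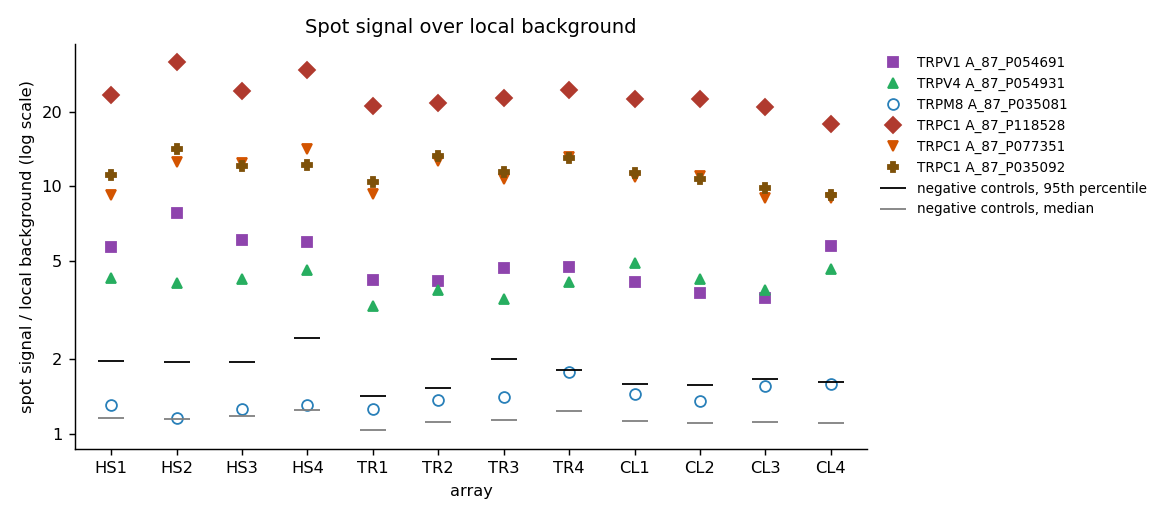
Spot signal divided by local background (log scale) for the 6 TRP probes on each of the 12 arrays, with the median and the 95th percentile of 153 negative control spots per array as dashes. TRPM8, at 1.16 to 1.78, lay at or under the 95th percentile of the negative controls on all arrays, and the other 5 probes lay above it.

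Of 24 further TRP genes listed, 3 had a named probe. Probes that carry Ensembl transcript accessions have no name here, so that this count is of named probes and not of the array's coverage of the family. TRPC5, a subunit that senses cold in mouse, was not well above background on any of 12 arrays, and it was not tested. The weaker mark, positive and significant, was set for TRPC5 on 4 HS arrays, 1 TR array and 2 CL arrays. Its log2 signals were 3.14 to 4.54 in HS, 2.76 to 3.00 in TR and 2.80 to 3.62 in CL. TRPC6, a channel opened by diacylglycerol, had log2 signals of 6.14 to 7.21 in HS, 6.32 to 6.97 in TR and 5.28 to 6.89 in CL. PKD2, the polycystin channel of cilia and endoplasmic reticulum, had 11.30 to 12.59 in HS, 12.19 to 12.38 in TR and 12.21 to 12.75 in CL with its brighter probe. The groups of both genes overlapped, CL1 was the lowest array for TRPC6 and HS1 for PKD2, and neither gene was DE. Their changes in HS vs. CL were 0.41 (FDR 0.506) and -0.36 (FDR 0.4), beside a median of -0.04 over all probes tested.

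Of 14 further genes tied to temperature sensing, which are channels and the calcium sensor STIM1, 5 were tested. The limits were passed by 1 of them, CNGA3, in HS vs. CL, where 3.58% of all tested probes passed. CNGA3, a cyclic nucleotide-gated channel subunit of cone photoreceptors that has been tied to sensing of cool temperatures in mouse, had log2 signals of 4.72, 5.19, 5.89 and 6.52 in HS1 to HS4, 5.73, 5.21, 5.35 and 5.45 in TR1 to TR4, and 4.34, 4.24, 4.20 and 3.86 in CL1 to CL4. Every HS and TR array lay above every CL array, and over all tested probes this held for 4.54% with HS above CL and for 2.38% with TR above CL. The probe was well above background on 3 HS arrays, 4 TR arrays and 0 CL arrays, so that its CL level was not reliably measured. It entered the fit only through TR, where its signal was high, and its FDR values against CL are not independent of that filter. With no filter on dim probes, they were 0.065 for HS and 0.379 for TR. For each CL array, the lowest signal marked above background was then used where it was higher than the CNGA3 signal. As point values without an interval, the CNGA3 means were 2.17-fold higher in HS and 1.97-fold higher in TR. The HS mean includes HS1, which was not well above background at 4.72, although the lowest signal marked on that array was 4.59. The lowest marked signal is thus not an upper limit for an unmarked spot, and these fold values are not lower limits. With CL as measured, the fitted intervals were 1.66- to 4.32-fold for HS (FDR 0.0499) and 1.5- to 3.91-fold for TR (FDR 0.342, not called). In HS vs. TR the change of CNGA3 was 0.14 (FDR 0.863). A second CNGA3 probe was above background on HS3 and HS4 only and was not tested. With normexp background correction, the change against CL was 0.42 for HS (FDR 0.158) and 0.32 for TR (FDR 0.665), and neither was called. The call for HS was also lost with the test that the methods name for qRT-PCR (FDR 0.189).

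**Figure D4:**
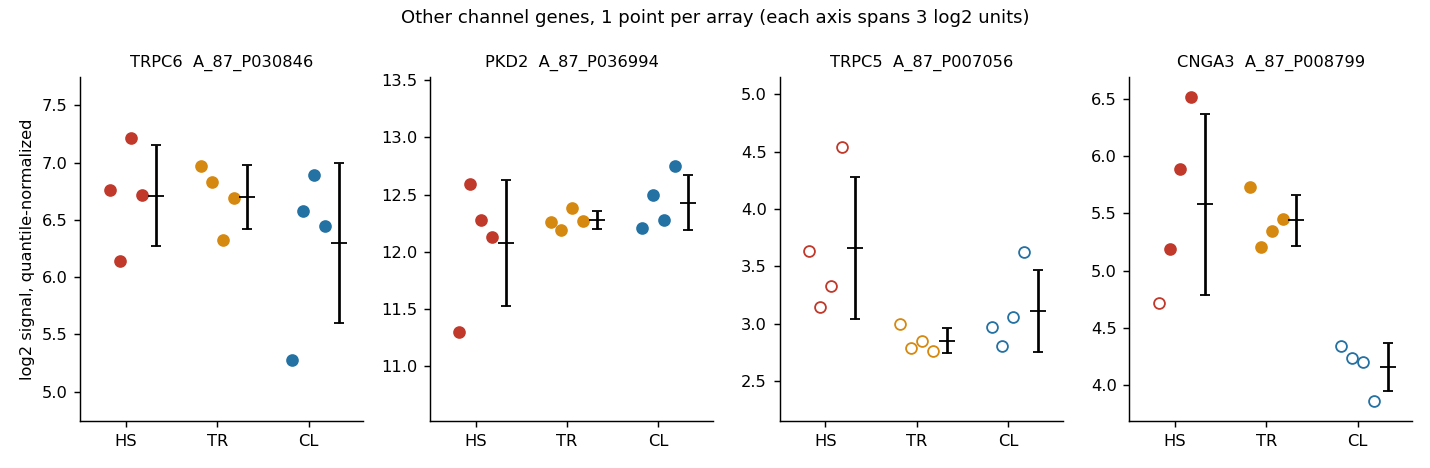
Quantile-normalized log2 signal of TRPC6, PKD2 (brighter probe), TRPC5 and CNGA3, with 1 point per array in HS, TR and CL; the black bar is the mean with 1 SD, open points were not well above background, and every axis spans the same range. CNGA3 lay at 4.72 to 6.52 in HS and 5.21 to 5.73 in TR, above the 3.86 to 4.34 of CL, and TRPC5 was not well above background on any array.

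Genes that work with the channels were counted from 2 further lists. Of 33 genes of calcium stores and receptor-operated calcium entry, among them the store sensor STIM1 and its channel ORAI1, 16 were tested and 0 were DE in any comparison. The DE shares over all tested probes were 3.58% (HS vs. CL), 1.84% (HS vs. TR) and 0.0945% (TR vs. CL). STIM1 and ORAI1 were also among the tested genes tied to temperature sensing above. Of these 16 genes, 10 had a higher mean in HS than in CL and 6 a lower one, with a median change of 0.10. Among all tested probes, 43.3% had a higher mean in HS than in CL, and the median change was -0.04. The smallest p-values were those of GNAQ, the G protein subunit that couples receptors to phospholipase C, and ATP2A3, a pump that refills the calcium store. ATP2A3 had log2 signals of 7.92 to 8.34 in HS and 8.44 to 8.67 in CL, and its change in HS vs. CL was -0.38 (FDR 0.161). GNAQ was 12.56 to 12.76 in TR and 12.72 to 12.96 in CL with its brightest probe, a change of -0.23 (FDR 0.538), while another of its 4 probes had a change of 0.26 (FDR 0.651).

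Of 45 genes that modify TRPV channels or TRPM8, 21 were tested and 0 were DE, beside the same shares over all tested probes (3.58% in HS vs. CL). Of these 21 genes, 13 had a higher mean in HS than in CL and 8 a lower one, with a median change of 0.14. The figures over all tested probes were 43.3% higher and a median of -0.04. PRKCA, a protein kinase that sensitizes TRPV1, had log2 signals of 15.11 to 15.33 in HS, 15.43 to 15.59 in TR and 15.43 to 15.82 in CL. All HS arrays lay below all TR and CL arrays, with changes of -0.37 in HS vs. CL (FDR 0.0772) and -0.31 in HS vs. TR (FDR 0.168), under the fold limit. Of all tested probes, 7.38% lay wholly lower in HS than in CL, and 6.66% wholly lower in HS than in TR. A second PRKCA probe had a change of -0.15 in HS vs. CL (FDR 0.559). CDK5, a kinase that phosphorylates TRPV1 in rodents, had 8.43 to 8.58 in HS, 8.72 to 9.30 in TR and 8.56 to 8.86 in CL, with a change of -0.45 in HS vs. TR (FDR 0.117), also under the fold limit.

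Markers of neurons and of striated muscle ranged more widely between arrays than the TRP probes did. For scale beside the counts below, 3.58% of all tested probes were DE between HS and CL, and 1.84% between HS and TR. Of the 6 neuron markers tested, 4 were DE against CL and against TR, namely STMN2, NEFL, NEFM and GAD1, all higher in HS, and the 6 had a median change of 2.48 for HS vs. CL, 2.86 for HS vs. TR and -0.30 for TR vs. CL. Their mean deviation from the 12-array mean was 0.00 to 3.56 in HS, -1.50 to -0.49 in TR and -1.66 to 0.76 in CL. The 8 astrocyte markers ranged from -0.14 to 0.31 in HS, -0.18 to 0.14 in TR and -0.17 to 0.01 in CL, and 0 of them were DE. The 8 striated muscle markers ranged from -0.92 to 2.92 in HS, -1.96 to -0.52 in TR and -0.90 to 4.41 in CL. Of the choroid plexus markers, FOLR1 and KL were not above background on any array, and 0 of the 4 tested were DE. Those 4 ranged from 0.06 to 0.84 in HS, -1.14 to 0.16 in TR and -0.57 to -0.05 in CL. In HS vs. CL, OTX2 (2.07), TTR (0.93) and PRLR (0.61) had a higher mean and AQP1 (-0.75) a lower one. OTX2 was well above background on 4 HS, 3 TR and 2 CL arrays. It entered the fit only through HS, where it was high, so its change and its part in the list's range are not independent of the filter. Of the 6 neuropeptide genes tested, AVP and GNRH1 were DE and higher in HS than in CL. Among the other lists, MYH11 (vessel and smooth muscle, 9 tested) was DE and higher in HS than in CL and than in TR. Those 9 genes had a median change of 0.02 in HS vs. CL (5 higher, 4 lower) and -0.11 in HS vs. TR (4 higher, 5 lower). ISL1 (sensory ganglion neuron, 2 tested) was DE and higher in HS than in CL. MYH7 (striated muscle) was DE and lower in HS than in CL, where the 8 genes of its list had a median change of -0.08 (3 higher, 5 lower). No gene of the oligodendrocyte (6 tested), microglial and lymphoid (6), erythroid (3) or pituitary (2) lists was DE, and no ependymal marker had a named probe. Of 3 midbrain dopaminergic genes tested, TH was above background on only 5 of 12 arrays, with log2 signals of 5.04 to 9.54 in HS, 2.37 to 3.99 in TR and 2.32 to 4.68 in CL. The filter let TH in only through a group where it was high, so its calls (higher in HS than in both other groups) are not independent of the filter, and the other 2 genes were not DE. The part of these differences in the TRPV4 and CNGA3 values was not tested.

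**Figure D5:**
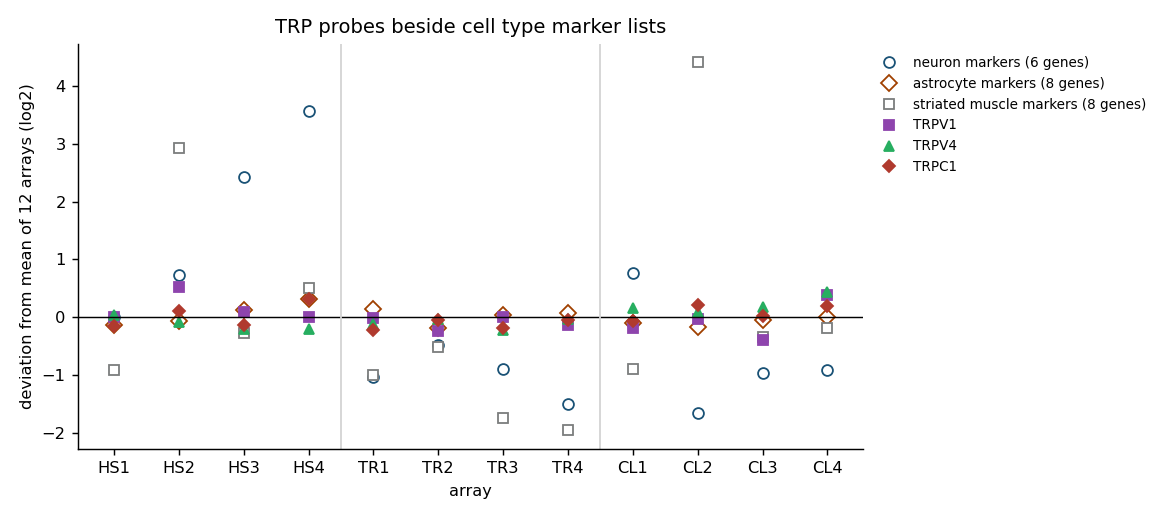
Deviation of each array from the mean of the 12 arrays (log2) for TRPV1, TRPV4 and the brightest TRPC1 probe (filled) and for the mean of the neuron, astrocyte and striated muscle marker lists (open), with arrays in the order HS, TR and CL. The neuron list reached 3.56 in HS and the muscle list 4.41 in CL, on CL2.

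The named genes whose signal over the 12 arrays was most like that of a member were picked by Pearson r among 4264 genes. For TRPV1 they were GCLC (r = 0.96), the catalytic subunit for glutathione synthesis, ANXA8L1 (r = 0.87), an annexin, and CYB5A (r = 0.86), cytochrome b5. With group means removed, these values were 0.96, 0.91 and 0.94. For TRPV4 they were BRCA1 (r = 0.87), a DNA repair gene, SPPL3 (r = 0.86), a protease of the Golgi membrane, and FAM172A (r = 0.83), and with group means removed 0.86, 0.76 and 0.61. For the brightest TRPC1 probe they were ZCCHC17 (r = 0.83), KRR1 (r = 0.82), a ribosome assembly factor, and ORMDL2 (r = 0.81), a regulator of sphingolipid synthesis, and with group means removed 0.87, 0.85 and 0.84. These are the highest of 4264 values over 12 arrays that share slides and labelling, and they describe these arrays only.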

How the data were processed

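RNA from the hypothalamus of 12 broilers (4 HS, 4 TR, 4 CL) was read with 1-colour Agilent arrays. The authors used Feature Extraction 10.7, and the deposited array files hold each spot's processed intensity (background subtracted, detrended, not scaled between arrays), its median intensity and that of its local background, and marks for spots above background, outlying or saturated. A deposited log2 table, which the authors normalized by quantiles in GeneSpring 11.0, has 43606 entries that were matched to spots by value (99.9% within 0.1 log2 units) and served only as an alternative.

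Processed intensities were taken to log2, 472 values from outlier spots were removed, quantile normalization was run on the non-control probes, and replicate spots were averaged. The filter on background marks left 34929 probes (34919 with values for HS vs. CL and HS vs. TR and 34922 for TR vs. CL). limma 3.58.1 in R 4.3.3 (lmFit, eBayes) fitted 3 groups to the 12 arrays, and p-values were adjusted over the whole set of tested probes (Benjamini-Hochberg, FDR). The methods give the limits but no test for the arrays, and name a t-test for qRT-PCR only, which was run as an alternative. The fit was tested on simulated data. Plots used matplotlib 3.10.9 (Python 3.11.15). Arrays have no counting depth, and their number limits the precision: the median 95% interval of a change extended 0.31 log2 units to each side.

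Probes were named by their accessions in a chicken gene table (GRCg7b), which named 10185 probes. Probes with Ensembl transcript accessions were left unnamed. They entered the normalization and, where they passed the filter, the fit and the shares over all tested probes. A listed gene with several probes is given by its brightest. All probes of the 4 genes are named. From each other list, genes called DE in any comparison are named or, with none called, the 2 with the smallest p, and for each member the 3 genes of highest r. STIM1, ORAI1, TRPC5 and the second probes of named genes were added as context, and marker genes were singled out after their values were seen. The members and lists were chosen with earlier results of these data known. The marker lists were neuron, hypothalamic neuropeptide, astrocyte, choroid plexus, ependyma, vessel and smooth muscle, striated muscle, oligodendrocyte, microglia and lymphoid, erythroid, sensory ganglion neuron, pituitary and midbrain dopaminergic genes. Alternatives were other scaling, background correction, filters, limits, tests, blocks and weights, and leaving out each array.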

Additional observations from a re-analysis of the deposited data

Results flagged for a closer look

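In 18 groups of 4 arrays (6 probes in HS, TR and CL), the gap of the highest or lowest array to its neighbour, as a share of the group's range, was above Dixon's 95% limit in 2. Chance sets off about 1 in 20 such groups. TRPV1 was 7.24 on HS2, with the other HS arrays at 6.71 to 6.80 (share 0.837). TRPM8 was 3.20 on TR4, with the other TR arrays at 2.53 to 2.61 (share 0.876), and none of these TRPM8 spots was well above background.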

How the results depend on the processing

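None of the TRP probes was DE in any comparison under any of the 12 other settings or with any 1 array left out, and 5 of the 6 probes were above background on 12 arrays by either mark. The stricter limit of FDR under 0.05 could add no call. The deposited log2 table was matched to spots by closeness to the values used here, so that it could hardly differ from them. In the main fit, the 1.5-fold limit was the only one that TRPV4 missed in HS vs. CL. Every setting kept that limit, so that no setting tests it. TRPV4 also missed the FDR limit in HS vs. CL with the t-test (FDR 0.181) and in the fit of only those groups (FDR 0.174). TRPM8 was fitted only in the setting with no filter on dim probes. TRPV4 kept its direction in HS vs. CL (-0.33 to -0.27, FDR 0.0678 to 0.181; with an array left out -0.38 to -0.26, FDR 0.0724 to 0.219) and in TR vs. CL (-0.43 to -0.26, FDR 0.164 to 0.54; with an array left out -0.36 to -0.24). Changes that turned sign were all uncalled: TRPV4 in HS vs. TR was 0.13 when arrays were scaled to the 75th percentile, TRPC1 (A_87_P035092) in HS vs. CL was -0.02 with normexp, and TRPV1 in TR vs. CL was 0.05 with array weights. With an array left out, TRPC1 in HS vs. CL ran from -0.15 to 0.01 (A_87_P118528) and -0.05 to 0.10 (A_87_P035092), TRPV4 in HS vs. TR from -0.06 to 0.01, TRPC1 (A_87_P077351) from -0.03 to 0.12 (HS vs. TR) and 0.00 to 0.18 (TR vs. CL), TRPV1 in TR vs. CL from -0.16 to 0.11, and CNGA3 in HS vs. TR from -0.17 to 0.43. The cause was not tested. CNGA3 in HS vs. CL was called with any array left out (1.10 to 1.71) but not with normexp (0.42, FDR 0.158) or the methods' t-test, which they name for qRT-PCR and not for the arrays (FDR 0.189), and in TR vs. CL it was called in the fit of only those groups (FDR 0.148), without an FDR limit and without HS4 (FDR 0.139). The replicate number gave no even pairing of the birds: deviations of same-numbered arrays had r between -0.15 and 0.37, highest for HS2 and CL2. A pairing by family was not tested. With the number as a replicate block, TRPV4 in HS vs. CL was -0.33 (FDR 0.12) and no call of a TRP probe changed. In that fit, TRPC1 (A_87_P118528) in TR vs. CL had a limma p of 0.0274 (FDR 0.509). Blocks on slide, or on scan day against CL, could not be fitted.

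Over all probes, 1250 (HS vs. CL), 644 (HS vs. TR) and 33 (TR vs. CL) were DE. These counts were 668, 306 and 19 with normexp, 351, 157 and 0 at FDR under 0.05 (2719 probes had p under 0.05 in TR vs. CL), 1836, 1429 and 482 without an FDR limit, and 413, 254 and 1 with the t-test of the qRT-PCR methods, which is not the study's array test. Array weights gave 1173 (HS vs. TR) and 53 (TR vs. CL), and in TR vs. CL the replicate block gave 20, scaling to the 75th percentile 57 and the fit of only those groups 10. With an array left out, they ran from 494 to 1908, 261 to 1218 and 0 to 42. The share of DE probes that was higher was 51.6%, 62.9% and 48.5%, against 56.2%, 82.3% and 21.1% scaled to the 75th percentile and 64.5%, 79.7% and 26.3% with normexp. TRPM8 was limited by its signal, which was under the background limit on all 12 arrays.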
